A study of Mus musculus with 32 samples.

Results

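Experiment P of this mouse series compared liver RNA from animals given sodium oxybate (SXB), a medicine for narcolepsy that is the gamma-hydroxybutyrate sodium salt, with liver RNA from animals given vehicle. Its members are the 16 libraries whose names carry the letter P, 8 vehicle (numbers 21, 22, 26, 31, 33, 34, 35 and 36) and 8 SXB (numbers 19, 20, 23, 24, 25, 28, 29 and 30), out of 32 libraries in the series. All are labelled as liver of C57BL/6J mice, with no other genotype. The series title names developing and established obesity, and the labels do not say which of these P is; dose, duration, diet, sex and age are not given in the sources used here. Whether the libraries stand for separate mice is not stated, and the p-values below thus describe variation among libraries, part of which may be technical.

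The table of P lists 242 genes, and all 242 were used. The authors had already selected them on these same libraries: in the authors' deposited table the log2 fold change exceeds 1 in size and the unadjusted p is below 0.05 throughout. Every count below is therefore a count among preselected genes and is not independent evidence of an effect of SXB. Values are the authors' normalised expression values, rounded to 0.01, and the sequencing depth behind them is unknown, so no counting interval can be given.

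Resident macrophages of the liver, the Kupffer cells, line the sinusoids and clear particles, bacteria and dying cells from the blood through scavenger receptors, lectins and Fc receptors. They secrete complement C1q and degrade what they take up in lysosomes, and circulating monocytes can take their place. In bulk liver RNA, fewer cells of a type and less RNA per cell cannot be told apart. The liver label itself could not be checked, because none of the 26 hepatocyte markers is among the listed genes.

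SXB livers had lower values for most listed genes, and genes of macrophages and other leukocytes made up a large share of those that passed the test. Of the 242 genes, 201 had a lower mean on the log2(value + 1) scale with SXB and 41 a higher one. In limma with Benjamini-Hochberg adjustment over all 242 genes and a threshold of 0.05, 84 genes fell (34.7% of those tested) and 10 rose (4.13%), together 38.8%. The median difference over all 242 genes was -0.17. In 71 of the 84 genes that fell, the median of the vehicle group exceeded each of the 8 SXB values.

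Vehicle libraries 33, 34 and 35 stood apart from the other 13. The values listed in a library summed to 1095, 1626 and 708 in these 3, to between 260 and 313 in the other 5 vehicle libraries, and to between 144 and 372 with SXB. For 136 of the 242 genes, and for 61 of the 84 that fell, the highest of the 16 values was in one of these 3 libraries. Without them all 84 genes stayed lower with SXB, and 43 of them passed; in that comparison 50 of 242 genes fell (20.7%) and 4 rose (1.65%). No library label explains what sets the 3 apart, and its part in the results was not tested beyond leaving them out. Library numbers above 30 were all vehicle, so a difference between early and late numbers, if the numbers mark an order, cannot be told apart from treatment for those libraries.

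**Figure D1:**
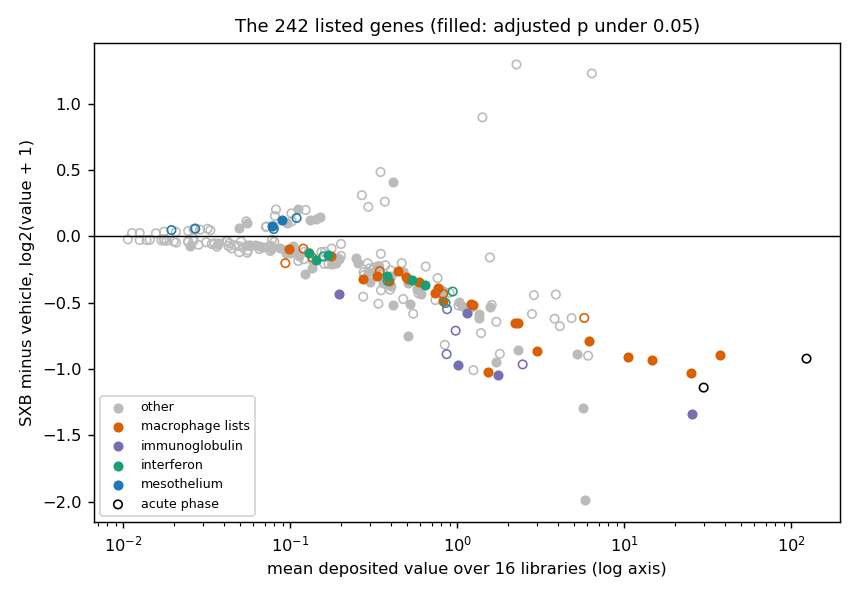
Difference of SXB minus vehicle in mean log2(value + 1) for each of the 242 listed genes against the mean deposited value over 16 libraries (log axis); filled points passed limma at an adjusted p under 0.05. The 84 filled points below the line include most macrophage genes, the 10 above it all lie at means under 1, and the 2 acute-phase genes are open.

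Because the scale adds 1 to each value, a difference on it understates the change of a low gene. Of the 63 genes whose higher group averaged 1 or more, 29 fell and 0 rose (34 did not pass), while of the 179 genes below that, 55 fell and 10 rose. Fold values below are ratios of the arithmetic means of the deposited values and do not carry this limit.

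The promoters of several genes that fell are shown here because they share letters that the choice of genes did not use. PU.1 is a transcription factor of myeloid and B cells whose core motif is GAGGAAGT, or ACTTCCTC on the other strand. In RefSeq promoters, from 250 bases before to 50 after the gene start (GRCm38.p6), 997 of 27025 genes hold these letters (3.69%). Among the P genes that fell, 59 of 84 have a promoter in that table and 10 of the 59 hold them (16.9%), against 11 of 93 for the genes that did not pass (11.8%) and 0 of 4 for those that rose. Of 28 other leukocyte genes with a promoter, 9 hold the letters (32.1%), and of 24 macrophage genes 4 do (16.7%). The lines below give 130 bases, from 110 before to 20 after the RefSeq start, of the 9 genes that fell and hold the core there, with the core in capitals; Pira2, the remaining one, holds it at -148.
Ctss (chr3:95526676-95526805, forward strand): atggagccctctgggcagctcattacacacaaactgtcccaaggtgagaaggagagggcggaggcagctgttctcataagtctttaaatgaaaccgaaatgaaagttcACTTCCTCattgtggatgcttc
Fcgr4 (chr1:171018816-171018945, forward strand): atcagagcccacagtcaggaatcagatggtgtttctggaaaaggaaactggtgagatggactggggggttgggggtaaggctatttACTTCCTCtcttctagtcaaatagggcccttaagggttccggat
Tlr1 (chr5:64933539-64933668, reverse strand): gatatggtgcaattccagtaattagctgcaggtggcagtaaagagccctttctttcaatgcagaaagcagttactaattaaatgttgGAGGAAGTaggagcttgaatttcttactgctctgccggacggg
Cd300lf (chr11:115133973-115134102, reverse strand): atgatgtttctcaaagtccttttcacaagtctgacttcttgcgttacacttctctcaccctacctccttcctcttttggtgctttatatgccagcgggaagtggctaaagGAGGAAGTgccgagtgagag
Fgd2 (chr17:29360804-29360933, forward strand): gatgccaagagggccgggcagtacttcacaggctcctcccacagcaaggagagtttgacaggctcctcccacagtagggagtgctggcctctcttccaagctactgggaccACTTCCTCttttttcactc
Traf3ip3 (chr1:193201527-193201656, reverse strand): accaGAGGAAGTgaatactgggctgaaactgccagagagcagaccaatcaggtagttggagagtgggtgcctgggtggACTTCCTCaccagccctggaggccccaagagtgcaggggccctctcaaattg
Btla (chr16:45224227-45224356, forward strand): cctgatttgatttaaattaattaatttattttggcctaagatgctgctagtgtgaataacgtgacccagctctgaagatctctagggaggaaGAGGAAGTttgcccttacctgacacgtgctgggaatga
Fcrl1 (chr3:87376277-87376406, forward strand): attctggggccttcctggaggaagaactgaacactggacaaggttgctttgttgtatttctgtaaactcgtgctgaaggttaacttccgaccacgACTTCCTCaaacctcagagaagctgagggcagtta
Gm12404 (chr4:41520262-41520391, forward strand): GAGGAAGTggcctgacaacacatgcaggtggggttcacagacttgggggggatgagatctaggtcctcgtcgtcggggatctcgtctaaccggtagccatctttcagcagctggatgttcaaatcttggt

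The core begins between -32 and 2 in 8 of these 9 genes, counting the first transcribed base as 1 and the base before it as -1, and Traf3ip3 holds it at both -106 and -32. Cathepsin S (Ctss), the Fc receptor Fcgr4, the Toll-like receptor Tlr1 and the inhibitory receptor Cd300lf belong to the macrophage lists. Fgd2, an exchange factor for Cdc42 of antigen presenting cells, Traf3ip3, Btla and Fcrl1 are genes of leukocytes, with Fcrl1 known from B cells. AP-1 letters (TGANTCA, which read the same on both strands) were in 4 of the 59 promoters (6.78%), against 8.97% of all. They were in 11 of 93 for genes that did not pass (11.8%) and 0 of 4 for those that rose. Among the groups, 3 of 24 macrophage genes (12.5%), 2 of 28 other leukocyte genes (7.14%) and 3 of 8 interferon genes (37.5%) held them. A match of letters is a description of sequence, not a site shown to be bound.

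Of a list of 15 genes that mark Kupffer cells 5 are in the table. The table holds only genes preselected on these libraries, so nothing is said about the rest of the list. All 5 fell (against 34.7% of all listed genes), with a median difference of -0.49 against -0.17 over all 242. Marco (chr1:120474538-120505024, GRCm38), a scavenger receptor, ranged from 1.5 to 3.52 with vehicle (median 2.29, n = 8 in each group) and from 0.22 to 1.07 with SXB (median 0.655). Every SXB library was below every vehicle library, and the mean was 3.66-fold lower (difference -1.02, SE 0.15, limma adjusted p = 0.00113). Cd5l (chr3:87357881-87371073), a protein secreted by tissue macrophages that keeps them alive and binds lipids, ranged from 9.43 to 18.9 with vehicle (median 14.8) and from 5.58 to 9.57 with SXB (median 6.59). Its groups overlapped through 1 SXB library, number 28, at 9.57, and the mean was 2.04-fold lower (difference -0.91, SE 0.14, adjusted p = 0.00113).

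Timd4 (chr11:46810800-46844332), a receptor for phosphatidylserine on dying cells, ranged from 0.44 to 1.12 with vehicle (median 0.76) and from 0.26 to 0.63 with SXB (median 0.395; difference -0.34, SE 0.075, adjusted p = 0.00429). Adgre1 (chr17:57358691-57483527), which encodes the macrophage antigen F4/80, ranged from 0.56 to 1.63 and from 0.29 to 0.78 in the same order (medians 1.26 and 0.50; difference -0.49, SE 0.11, adjusted p = 0.00507). In both genes 6 of the 8 SXB libraries were below the lowest vehicle library. Spic (chr10:88674772-88685015), a transcription factor of iron-handling macrophages, had medians of 0.68 with vehicle and 0.345 with SXB (difference -0.32, SE 0.096, adjusted p = 0.0215). Without vehicle libraries 33, 34 and 35 its difference of -0.24 did not pass (adjusted p = 0.0985), while the other 4 genes passed (against 20.7% of all listed genes).

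**Figure D2:**
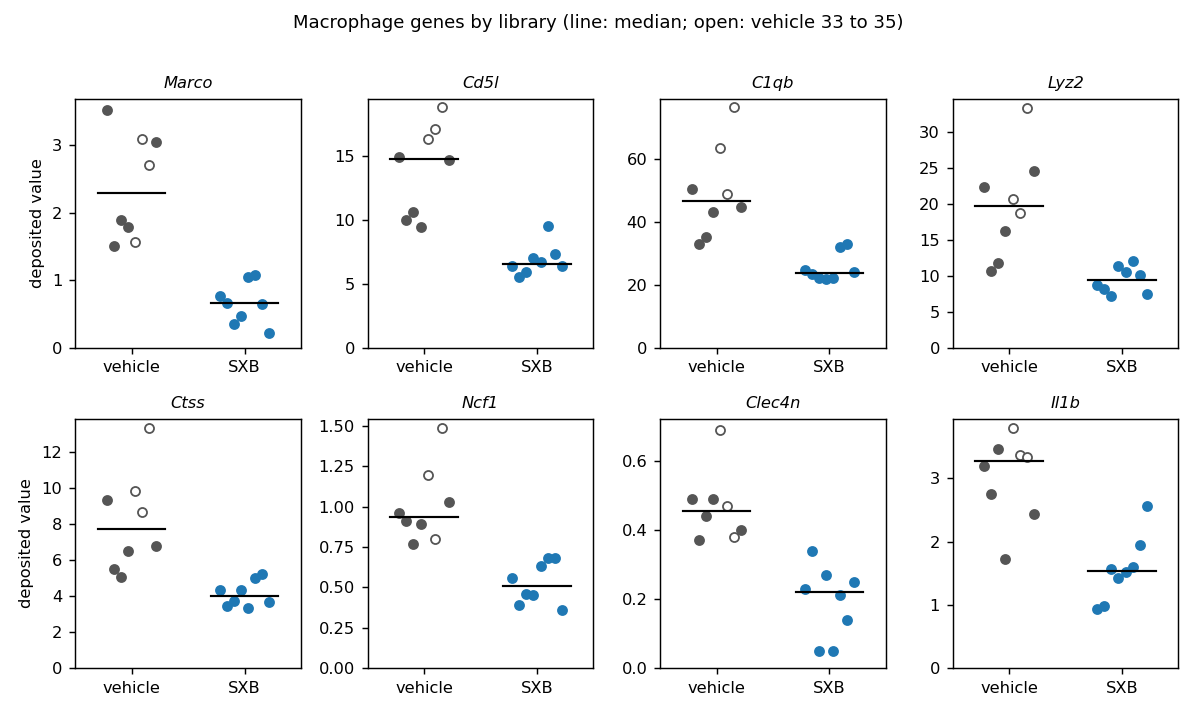
Deposited values of 8 macrophage genes in each of the 16 libraries, with vehicle on the left and SXB on the right of each panel; lines are medians and open circles are vehicle libraries 33, 34 and 35. In Marco, Ncf1 and Clec4n every SXB point lies under every vehicle point, and in the other 5 the groups overlap by a few libraries.

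Of a list of 63 phagocyte receptors 12 are in the table, which holds only preselected genes. All 12 had lower means with SXB, and 10 of the 12 fell (83.3%, against 34.7% of all listed genes). Clec4n (dectin-2, a lectin for fungal mannans; chr6:123229843-123247021) ranged from 0.37 to 0.69 with vehicle (median 0.455) and from 0.05 to 0.34 with SXB (median 0.22), and the groups did not overlap (2.42-fold lower; difference -0.30, SE 0.056, adjusted p = 0.00159). Siglece, an inhibitory receptor for sialic acid, ranged from 1.78 to 4.6 with vehicle (median 2.60) and from 0.76 to 2.23 with SXB (median 1.43; 1.98-fold lower, difference -0.66, SE 0.16, adjusted p = 0.0082). Clec7a (dectin-1, the receptor for beta-glucan) and the IgG receptor Fcgr4, whose promoter is shown above, fell 2.18-fold and 1.98-fold, and in each the vehicle median exceeded all 8 SXB values.

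Tlr13 and Tlr1, sensors of bacterial RNA and lipopeptides, the LPS co-receptor Cd14, the inhibitory receptors Cd300lf and Clec4a2 and the membrane protein Ms4a6d made up the rest of those that fell, with differences from -0.096 (Tlr13) to -0.51 (Cd14). Leaving out any 1 of 9 libraries ended the call for Cd14 or Tlr1 (33, 34, 35, 19, 24, 25, 28 and 30 for both, with 23 for Cd14 and 20 for Tlr1), any of 33, 34, 19, 23, 24 and 29 that for Ms4a6d, and 35 or 19 those for Tlr13 and Cd300lf. Trem2, a lipid receptor of macrophages in injured tissue (difference -0.43, adjusted p = 0.074), and Clec4d (-0.093, adjusted p = 0.208) did not pass. This group leaned on the 3 high vehicle libraries: without them all 12 stayed lower but only Clec4n passed, 1 of 12 (against 20.7% of all listed genes). Cd14 shows it most plainly, with 2.77, 3 and 2.85 in libraries 33, 34 and 35, 0.61 to 1.21 in the other 5 vehicle libraries and 0.57 to 1.05 with SXB; its difference without the 3 was -0.15 (adjusted p = 0.192).

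C1qb, a chain of complement C1q, was the only one of 23 complement genes in the table. It ranged from 32.8 to 76.3 with vehicle (median 46.7) and from 21.9 to 32.9 with SXB (median 23.7), and 7 SXB libraries were below every vehicle library (1.94-fold lower; difference -0.90, SE 0.16, adjusted p = 0.00138). Without libraries 33, 34 and 35 the difference was -0.67 (adjusted p = 0.00877).

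Of 33 lysosomal, oxidase and other effector genes of myeloid cells 6 are in the table. Of these 6, 5 fell (83.3%, against 34.7% of all listed genes), and all 5 passed without libraries 33, 34 and 35 (against 20.7%). They were the lysosomal and oxidase genes Ncf1, Ctss and Lyz2 and the secreted proteins Wfdc17 and Lgals3. Ncf1 (chr5:134220053-134229625), the p47 subunit of the phagocyte NADPH oxidase, ranged from 0.77 to 1.49 with vehicle (median 0.935) and from 0.36 to 0.68 with SXB (median 0.51). Its groups did not overlap (1.91-fold lower; difference -0.39, SE 0.070, adjusted p = 0.00139). Ctss, the lysosomal protease cathepsin S, ranged from 5.05 to 13.3 with vehicle (median 7.71) and from 3.30 to 5.23 with SXB (median 4.02); Lyz2, the lysozyme of myeloid cells, ranged from 10.7 to 33.3 and from 7.18 to 12.04 (medians 19.7 and 9.43). Both fell about as far, 1.97-fold (difference -0.79, SE 0.16) and 2.09-fold (difference -0.93, SE 0.20).

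Wfdc17, a small secreted protein of activated macrophages, ranged from 20.5 to 52.8 with vehicle (median 33.2) and from 12.01 to 23.9 with SXB (median 14.8; 2.14-fold lower, difference -1.03, SE 0.18, adjusted p = 0.00138). Lgals3, the secreted lectin galectin-3, fell 2.43-fold (medians 3.74 and 1.76; difference -0.87, SE 0.20, adjusted p = 0.00579). Gpnmb, a lysosomal membrane glycoprotein of lipid-laden macrophages, did not pass: it was at 0.45, 0.34 and 0.63 in vehicle libraries 33, 34 and 35, from 0.01 to 0.09 in the other vehicle libraries and from 0.01 to 0.15 with SXB.

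Among 5 listed cytokines and chemokines, Il1b and Ccl3 fell. These 2 of 5 are a share close to the 34.7% of all listed genes, so with all libraries this list did not stand out. Without libraries 33, 34 and 35, 4 of the 5 passed as lower (against 20.7% of all listed genes). Il1b, the inflammatory cytokine interleukin-1 beta, ranged from 1.73 to 3.80 with vehicle (median 3.27) and from 0.93 to 2.56 with SXB (median 1.53), with all SXB libraries below the vehicle median (1.92-fold lower; difference -0.65, SE 0.13, adjusted p = 0.00284). Ccl3, a chemokine for monocytes and T cells, was listed at 0 in 3 SXB libraries and reached 0.39 in the highest, against 0.24 to 0.58 with vehicle (difference -0.32, SE 0.082, adjusted p = 0.00958). Ccl7, a monocyte chemokine, was listed at 0 in 7 of 8 SXB libraries and in 2 of 8 vehicle libraries, and the B cell chemokine Cxcl13 had medians of 0.42 with vehicle and 0.22 with SXB; they did not pass (adjusted p = 0.0621 and 0.0548). Both passed as lower without libraries 33, 34 and 35 (differences -0.14 and -0.33, adjusted p = 0.0328 and 0.0335). Ccl6, at 14.1, 11.9 and 13.6 in those 3 libraries and at 2.57 to 6.54 in the other 13, did not pass in either comparison.

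Over these 5 lists, 23 of 29 macrophage genes fell (79.3%, against 34.7% of all listed genes), and the median difference was -0.43. The summed value of the 29 ranged from 105 to 248 with vehicle (median 158) and from 64.2 to 103 with SXB (median 73.0), so that the groups did not overlap. Without libraries 33, 34 and 35 the vehicle sums ranged from 105 to 163, and 15 of the 29 passed as lower (against 20.7% of all listed genes). Leaving out libraries cannot make groups that lie apart overlap, so the reduced range of sums says nothing about stability. The members and lists were chosen with results of these data known, and the sum carries no test.

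**Figure D3:**
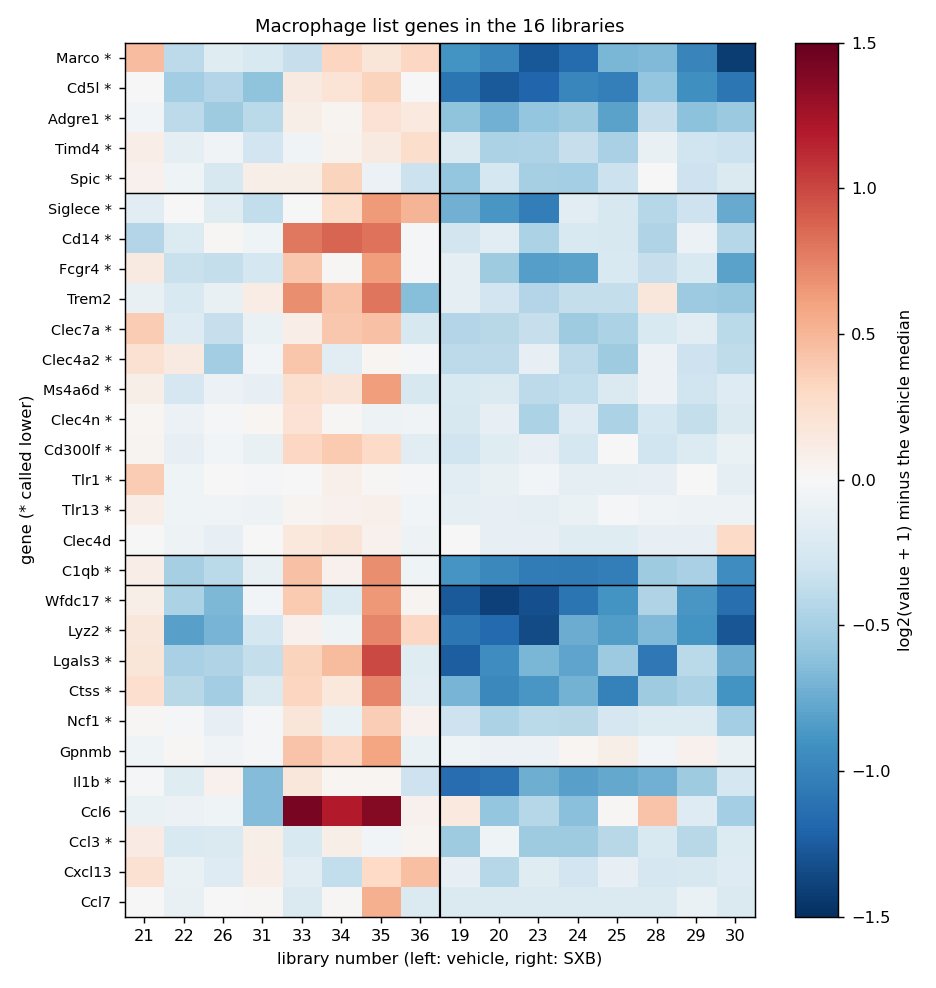
Macrophage genes (rows, grouped from top to bottom as Kupffer cell identity, phagocyte receptors, complement, lysosome and oxidase, cytokines and chemokines) in the 16 libraries (columns), coloured by log2(value + 1) minus the vehicle median of the gene. The 8 SXB columns on the right are mostly blue, and the red in the vehicle columns gathers in libraries 33, 34 and 35.

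Other genes of leukocytes, grouped after their values were seen, followed: 20 of 30 fell (66.7%, against 34.7% of all listed genes), with a median difference of -0.19 against -0.17. Without libraries 33, 34 and 35, 13 of the 30 were called lower (against 20.7% of all listed genes). Il2rg, the common gamma chain of the receptors for several interleukins, ranged from 0.67 to 1.12 with vehicle (median 0.73) and from 0.18 to 0.50 with SXB (median 0.39), without overlap (2.33-fold lower; difference -0.44, SE 0.069, adjusted p = 0.00113). Ear2, a ribonuclease of eosinophils and macrophages, ranged from 2.10 to 4.64 and from 0.39 to 2.08 (medians 3.37 and 1.46), and Igsf6, a surface protein of myeloid cells, from 0.53 to 1.34 and from 0.21 to 0.52 (medians 0.76 and 0.405). Neither of these overlapped between groups (differences -0.86, SE 0.17, and -0.38, SE 0.079). Ear2 belongs to a family of near-identical genes, so its reads may be shared with relatives.

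Aoah, an enzyme that inactivates bacterial lipopolysaccharide, fell 2.65-fold (medians 0.255 and 0.10), and P2ry13, a receptor for ADP, fell 2.76-fold (medians 0.605 and 0.175). Its neighbour P2ry12, another ADP receptor, fell 2.06-fold. Both lie inside Med12l on the opposite strand, and whether the counting used strand is not given. The limit is wider: 112 of the 242 genes overlap another gene, and 73 overlap one on the other strand. Igsf6 and Ncf1 are among the latter, and Il2rg overlaps a gene model on its own strand. Ltb, a cytokine that organises lymphoid tissue, fell 2.10-fold (adjusted p = 0.00582) and passed without the 3 libraries too, while the costimulatory receptor Cd40 fell 2.79-fold (adjusted p = 0.0432) and did not (adjusted p = 0.14). Leaving out any library other than vehicle 22 and 36 ended the call for Cd40, and any other than vehicle 21, 26 and 36 and SXB 24 that for Fcrl1.

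In all, 7 of the 242 genes (2.89%) had groups without overlap, all lower with SXB, and 0 had groups apart in the other direction. They were Marco, Il2rg, Ncf1, Fabp7, Clec4n, Ear2 and Igsf6. Fabp7, a fatty acid binding protein, was the one outside the lists and groups used here, which does not show in which liver cells it is made. It ranged from 1.03 to 2.02 with vehicle (median 1.39) and from 0.41 to 0.99 with SXB (median 0.665, 2.09-fold lower, difference -0.53, SE 0.096, adjusted p = 0.00139). All 7 also passed without vehicle libraries 33, 34 and 35 (against 20.7% of all listed genes). They were picked for groups that lie apart, which leaving out libraries cannot make overlap, so this says little about stability.

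Some of the genes that fell lie side by side. In GENCODE M21, 59 of the 242 genes have another listed gene within 500 kilobases. On chromosome 11, Cd300c2, Cd300e and Cd300lf, receptors of myeloid cells, all fell (1.91-fold, 2.20-fold and 1.90-fold), and on chromosome 6 Clec4n and Clec4a2 fell while the neighbouring Clec4d did not pass. None of the 3 Cd300 genes passed without libraries 33, 34 and 35 (adjusted p = 0.159, 0.0541 and 0.143), and leaving out library 35 alone ended the calls for Cd300c2 and Cd300lf. Cd5l lies next to Fcrl1 on chromosome 3, and Slfn1 next to Slfn2 on chromosome 11. Members of such families resemble each other, and how reads were divided among them is uncertain.

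Of 44 genes induced by interferon 4 are in the table, and all 4 fell (against 34.7% of all listed genes). Their median difference was -0.24, near the -0.17 over all 242. Ifit3b, an antiviral protein, ranged from 0.50 to 1.25 with vehicle (median 0.86) and from 0.26 to 0.68 with SXB (median 0.415; difference -0.37, SE 0.089, adjusted p = 0.00622). Gbp5, a GTPase of the inflammasome pathway, ranged from 0.10 to 0.23 and from 0.03 to 0.12 (difference -0.13, SE 0.028, adjusted p = 0.00455). Ifi211, a DNA sensor family member, and Slfn1, a growth regulator of lymphocytes, fell 2.3-fold and 3.02-fold. All 4 passed without libraries 33, 34 and 35 (against 20.7% of all listed genes). Of 6 related genes grouped after their values were seen, Ifi209 and Slfn2 fell (33.3%, against 34.7% of all listed genes) and 4 did not pass. Among the latter, Gbp2b (difference -0.15, adjusted p = 0.0747) passed as lower without libraries 33, 34 and 35 (-0.21, adjusted p = 0.0332). Slfn2 went from -0.33 (adjusted p = 0.0283) to -0.16 without them and no longer passed (adjusted p = 0.0943).

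An interferon response element (TTTC, any 2 bases and TTTC, on either strand) is in 1079 of the 27025 promoters (3.99%). It is in 4 of the 8 promoters found for these 10 interferon genes (50%) and in 10 of 59 for all genes that fell (16.9%). It is also in 7 of 93 for genes that did not pass (7.53%) and in 1 of 4 for genes that rose, that of Gpm6a. The stretches below show it in capitals with 20 bases on each side; it starts at -188 and -154 in Ifit3b, -165 in Gbp5, -37 in Ifi211 and -137 in Gbp2b.
Ifit3b (chr19:34607749-34607832, forward strand): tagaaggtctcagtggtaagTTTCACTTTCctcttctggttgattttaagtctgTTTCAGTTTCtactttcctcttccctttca
Gbp5 (chr3:142496749-142496798, forward strand): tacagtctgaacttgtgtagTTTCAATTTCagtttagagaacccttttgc
Ifi211 (chr1:173913054-173913103, reverse strand): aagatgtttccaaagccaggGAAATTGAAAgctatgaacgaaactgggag
Gbp2b (chr3:142594690-142594739, forward strand): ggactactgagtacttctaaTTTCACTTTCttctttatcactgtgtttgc

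Among the promoters with the PU.1 core, those of Ctss and Fcgr4 also hold the interferon element, at -21 and -73, where it is not in capitals.

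Immunoglobulin genes, the products of B and plasma cells, were all lower on the mean log2 scale, and 5 of 9 fell (55.6%, against 34.7% of all listed genes). Igkc, which encodes the constant part of kappa chains, ranged from 15.03 to 93.5 with vehicle (median 23.1) and from 6.15 to 20.4 with SXB (median 12.5). Its highest values were 93.5, 70.2 and 46.7 in vehicle libraries 35, 33 and 36, and 7 SXB libraries were below every vehicle library (difference -1.34, SE 0.38, adjusted p = 0.0167). The variable segment Igkv4-61 was listed at 0 in all 8 SXB libraries and in 2 vehicle libraries, and reached 1.06 in the others (difference -0.43, adjusted p = 0.0186).

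Igkv3-2 had medians of 1.54 with vehicle and 0.64 with SXB, and the lambda constant gene Iglc2 had 1.62 and 0.70; both fell (adjusted p = 0.0215 and 0.0275), Iglc2 not without library 35 or 19. The heavy chain genes were carried by few libraries. Ighg1 reached 22.4 and 11.9 in vehicle libraries 35 and 33, stayed between 0 and 1.11 in the other 6, and was between 0.05 and 1.13 with SXB (difference -0.96, SE 0.62, adjusted p = 0.161). Ighg2b passed (medians 0.70 and 0.11, adjusted p = 0.0457), but leaving out any 1 of 12 libraries (vehicle 33 to 36 or any SXB library) ended the call. The summed immunoglobulin value, mostly that of Igkc (vehicle mean 38.3, SXB mean 12.2), ranged from 19.6 to 141 with vehicle and from 6.86 to 23.2 with SXB. Without libraries 33, 34 and 35, the 3 kappa genes Igkc, Igkv3-2 and Igkv4-61 passed and Iglc2 and Ighg2b did not (3 of 9, against 20.7% of all listed genes), and Ighg1 was higher with SXB (difference 0.095).

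Of 26 markers of B and plasma cells, only Mzb1 and Derl3 are in the table. Neither passed: Mzb1, a chaperone of antibody-secreting cells, had medians of 0.50 with vehicle and 0.215 with SXB (adjusted p = 0.0793), and Derl3, a protein of endoplasmic reticulum quality control, ranged from 0.87 to 18.9 with vehicle and from 0.74 to 5.53 with SXB. Of 28 T and NK cell markers 0 are listed. Of 26 neutrophil genes 3 are listed, and 1 of them fell (33.3%, near the 34.7% of all listed genes). This was Fpr2, a receptor for formylated peptides (medians 0.445 and 0.185, adjusted p = 0.0193), which did not pass without libraries 33, 34 and 35 (adjusted p = 0.0531). The granule genes S100a9 and Ngp had their 3 highest vehicle values in libraries 33, 34 and 35 and did not pass.

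**Figure D4:**
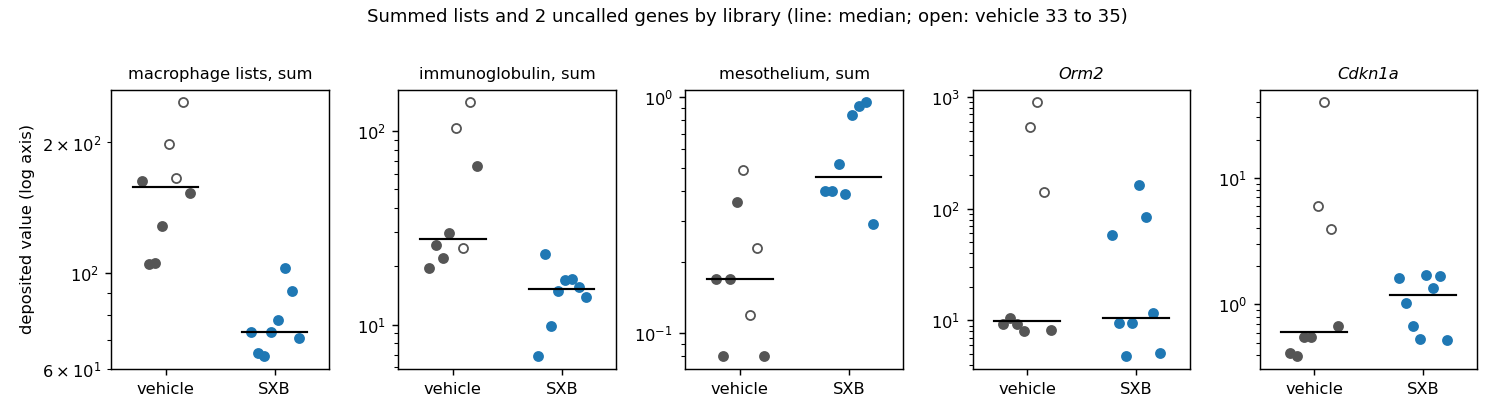
Summed deposited values of the 29 macrophage, 9 immunoglobulin and 6 mesothelium genes, and the values of Orm2 and Cdkn1a, in each of the 16 libraries (log axes); lines are medians and open circles are vehicle libraries 33, 34 and 35. Macrophage sums, weighted to a few abundant genes, do not overlap between groups, by a narrow margin. Mesothelium sums are higher with SXB with overlap, and the highest Orm2 and Cdkn1a values are open circles.

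The 2 listed genes of the acute-phase response did not separate the groups. Orm2, an acute-phase plasma protein, was at 540, 897 and 140 in vehicle libraries 33, 34 and 35 and at 8.03 to 10.4 in the other 5 vehicle libraries. With SXB it ranged from 4.78 to 163 (median 10.6), with libraries 19, 25 and 28 at 57.9, 163 and 85.1. The difference was -0.92 with all libraries (adjusted p = 0.452) and 1.09 without the 3 (adjusted p = 0.287). Saa3, serum amyloid A of inflamed tissue, showed the same libraries high: 82.3, 265 and 23.97, against 3.33 to 8.60 in the other vehicle libraries and 1.82 to 20.7 with SXB.

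Cdkn1a, the cell cycle inhibitor p21, reached 39.4 in vehicle library 34, 6.03 in 33 and 3.91 in 35, and lay between 0.39 and 0.67 in the other vehicle libraries. The SXB libraries lay between 0.52 and 1.71, and 6 of them were above the vehicle median of 0.61, although the mean was 5.71-fold lower with SXB (adjusted p = 0.334). Asns, an enzyme induced by amino acid shortage, reached 23.6 in library 34 alone, against 0.23 to 3.36 in the other 15. Cidec, a lipid droplet protein and the one lipid storage gene listed, did not pass, at vehicle and SXB medians of 3.71 and 2.34 (adjusted p = 0.0771).

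In 24 of the 242 genes at least 50% of the summed value of the higher group came from 1 library, and none of these genes passed in limma with all 16 libraries. The lists for lipid synthesis, fatty acid oxidation, glucose and insulin, bile acids, circadian rhythm and the handling of gamma-hydroxybutyrate and GABA have no gene in the table, so nothing is said about them here.

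**Figure D5:**
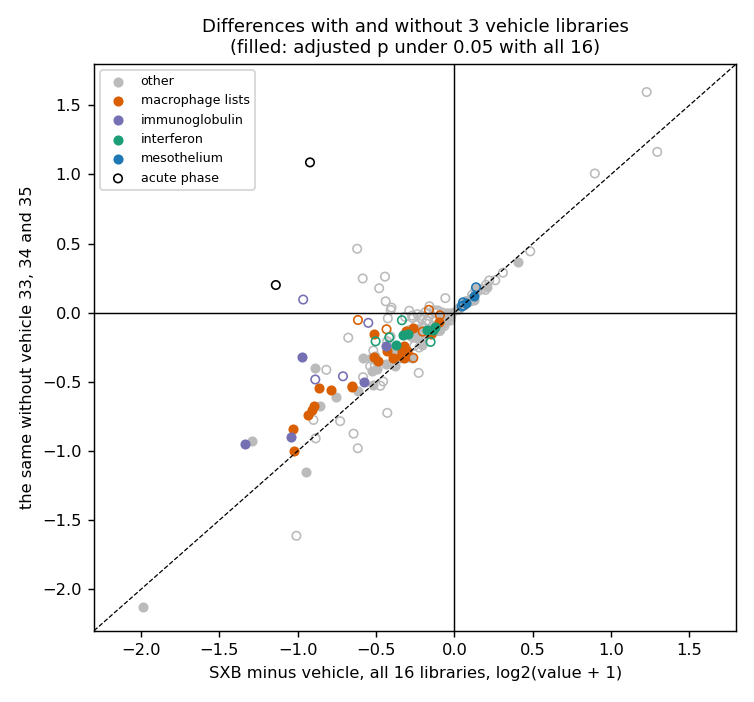
Difference of SXB minus vehicle in log2(value + 1) for each listed gene with all 16 libraries (horizontal) and without vehicle libraries 33, 34 and 35 (vertical); the dashed line marks equal values and filled points passed with all 16. Filled points keep their sign, most macrophage genes lie nearer to 0 without the 3 libraries (Tlr1, Ccl3 and Cxcl13 lie farther), and Orm2 moves from -0.92 to 1.09.

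The 10 genes that rose all had means under 1 in both groups. Upk3b and Gpm6a, markers of the mesothelium, the cell layer that covers the liver surface, were among them. Of a list of 25 such markers 6 are in the table, and these 2 rose (against 4.13% of all listed genes).
Upk3b (uroplakin 3B; chr5:136038496-136046487) ranged from 0 to 0.10 with vehicle (median 0.03) and from 0.01 to 0.26 with SXB (median 0.115), with 7 of 8 SXB libraries above the vehicle median (difference 0.12, SE 0.041, adjusted p = 0.0297). Gpm6a, a membrane glycoprotein, had medians of 0.045 and 0.11 (difference 0.076, SE 0.029, adjusted p = 0.0471). The 4 other mesothelial genes listed, Upk1b, Muc16, Msln and Krt7, were higher on average and did not pass (adjusted p from 0.058 for Upk1b to 0.134 for Krt7). The summed mesothelial value ranged from 0.08 to 0.49 with vehicle and from 0.29 to 0.95 with SXB, and without libraries 33, 34 and 35 none of the 6 passed. The call for Upk3b ended on leaving out library 35, 25, 28 or 29, and that for Gpm6a on leaving out any but 21, 19, 23 and 24. How much liver surface a sample held was not tested.

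Of the 8 remaining genes that rose, 7 are gene models without a descriptive name. The model 5430430B14Rik ranged from 0.03 to 0.12 with vehicle and from 0.07 to 0.18 with SXB (difference 0.10, SE 0.024, adjusted p = 0.00622), and the pseudogene Gm45344 from 0.08 to 0.47 and from 0.19 to 1.42 (3.11-fold higher; difference 0.41, SE 0.12, adjusted p = 0.0215). The pseudogene Gm12366 was listed at 0 in 6 vehicle libraries and ranged from 0.07 to 0.38 with SXB. In each of these models all 8 SXB libraries, or 7 in Gm45344, were above the vehicle median. C1qtnf9, which encodes a secreted relative of adiponectin, rose 2.23-fold (medians 0.10 and 0.195, adjusted p = 0.0356), but the call ended on leaving out any 1 of 7 libraries (21, 26, 31, 35, 19, 23 or 24). Without vehicle libraries 33, 34 and 35 the models 5430430B14Rik and 6030442K20Rik and C1qtnf9 still passed.

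Of the 59 gene models without a descriptive name 12 fell, a share of 20.3% against 34.7% over all listed genes. Without libraries 33, 34 and 35, 4 of the 59 were called lower, against 20.7% of all listed genes. Gm43558 had the largest difference of all genes that passed (-1.99, SE 0.59, adjusted p = 0.0206) and an uneven pattern with SXB. It was at 10.2 in SXB libraries 19 and 23, at 3.01 in 30, at 0.15 in 20 and listed at 0 in the other 4, against 4.37 to 19.4 with vehicle. The lincRNA Gm37027 had medians of 7.86 with vehicle and 2.60 with SXB (difference -1.29, SE 0.41), and the lincRNA Gm6712 had 0.635 and 0.195 (difference -0.52, SE 0.10, adjusted p = 0.00223). The pseudogene Obox4-ps1 fell 3.06-fold (adjusted p = 0.0162) and Cnbd2, a gene with a cyclic nucleotide binding domain, fell 2.48-fold (adjusted p = 0.0457). The call for Cnbd2 ended on leaving out any 1 of 11 libraries (vehicle 33 to 36 or any SXB library but 25), and that for Gm37027 on leaving out vehicle library 35 or SXB library 19.

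The gene mt-Co3, a mitochondrial subunit of cytochrome oxidase, had deposited values that were uneven within both groups. It was at 44.3 and 43.0 in SXB libraries 24 and 29, at 4.88 in SXB library 28 and 8.73 in vehicle library 34, and at or below 0.15 in the other 12. The groups overlapped and it did not pass in limma (difference 1.23, SE 0.92, adjusted p = 0.217). In GENCODE M21 mt-Co3 overlaps mt-Atp6 on the same strand. How reads were divided between them is not given, so the values may not reflect the expression of mt-Co3 alone.

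The series has a second experiment, T, with 8 vehicle and 8 SXB libraries, and 15 genes are listed in both tables. The tables were normalised apart, so only differences within each were set side by side, by limma's interaction term for the 15 genes. The authors' selection had kept these genes for a large change in each experiment on the same libraries, so a gene of opposite sign in P and T was chosen for a large difference between them, and the test is not independent of that choice. In 5 of the 15 (33.3%) the difference of SXB minus vehicle was not the same in P and T. Ugt2b37, a glucuronidation enzyme, had a difference of -0.41 in P and 0.40 in T (adjusted p = 0.00781), and Wif1, a secreted Wnt inhibitor, had -0.20 and 0.39 (adjusted p = 0.0231). The mesothelial genes Upk3b and Msln went the other way, with 0.12 in P against -0.16 in T (adjusted p = 0.00781) and 0.14 against -0.16 (adjusted p = 0.0224). Without vehicle libraries 33, 34 and 35 of P, the interaction passed for Upk3b, Msln and Ugt2b37 but not for Wif1 or Tmc5 (adjusted p = 0.0672 and 0.192). Tmc5, the fifth gene, had -0.11 in P and 0.15 in T (adjusted p = 0.0403), and a median of 0 in both vehicle groups. Leaving out T libraries 16 and 18, whose columns stand among those of the other group, gave 6 genes past the threshold.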

How the data were processed

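Liver RNA had been extracted with TRIzol and sequenced as paired 150-base reads on an Illumina instrument, per the labels' protocols. Per the submitters' processing notes the tools included HISAT2, StringTie, RSEM, fastp and DESeq2, with genome build GRCm38; order and settings are not given. The authors deposited 1 normalised expression value per gene and library, treated here as a signal rounded to 0.01; the kind of normalisation (TPM, FPKM or other) is not given, and depth is unknown. The authors' deposited table also holds their fold change (a ratio), log2 fold change and p-value, under headings shifted by 1 column; they served only to describe the selection of genes.

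The library values were taken as log2(value + 1) and compared, SXB minus vehicle, with limma 3.58.1 in R 4.3.3 over all 242 genes with Benjamini-Hochberg adjustment (threshold 0.05) and no filter; the method was checked on simulated data. Exact tests went over all 12870 assignments of the 16 libraries, two-sided, in Python 3.11.15 with numpy 2.4.6 and scipy 1.17.1. All 242 gene IDs matched GENCODE M21 (GRCm38), the source of coordinates. Spearman correlations between libraries ran from 0.521 to 0.866, so none was a copy of another.

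The members, lists and rule for named genes were chosen with earlier results of these data known; the groups of other leukocyte and related interferon genes were made after their values were seen. Named genes are the largest changes that passed, list members, genes shared with T, those of highest mean and those without overlap between groups. Alternatives were other pseudocounts, a minimum mean, trended and robust fitting, library weights, exact tests and leaving out libraries.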

Additional observations from a re-analysis of the deposited data

Results flagged for a closer look

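In 24 of 196 groups of 8 libraries examined, 1 library lay far from the others; chance marks about 1 group in 20. In vehicle library 34 the values were highest for Saa3 (265), Cdkn1a (39.4), Asns (23.6), Cidec (16.9), mt-Co3 (8.73), Tmc5 (0.52) and 6030442K20Rik (0.23). Other vehicle libraries stood out as highest for Tpt1-ps3 in library 21 (12.8), Tlr1 in 21 (0.56), Clec4n in 33 (0.69), Ccl7 in 35 (0.68), Slfn1 in 35 (0.52), Gm45344 in 31 (0.47) and Gm47218 in 36 (0.20).

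With SXB, library 28 was highest for Cd5l (9.57) and Wfdc17 (23.9), and library 29 for Slfn2 (0.64), C1qtnf9 (0.39) and Ccl7 (0.08). The others were Clec4d in library 30 (0.39), 9330161L09Rik in 25 (0.24), Fcrl1 in 24 (0.17) and Gm48372 in 19 (0.16), while 5430430B14Rik was lowest in 23 (0.07).

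The difference of SXB minus vehicle was not the same in experiments P and T for 5 genes in limma's interaction test, among 15 genes that the authors had selected for a change in each experiment on the same libraries. The P difference minus the T difference was -0.81 for Ugt2b37, -0.59 for Wif1, -0.25 for Tmc5, 0.28 for Upk3b and 0.30 for Msln.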

How the results depend on the processing

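Against 84 genes lower and 10 higher, the counts were 93 and 17 with a pseudocount of 0.1, 106 and 24 with 0.01, 100 and 17 with trended and robust fitting, 87 and 6 with library weights, 96 and 17 in the exact permutation test and 91 and 13 in the exact rank-sum test. Among the 47 genes with a mean of at least 1 they were 25 and 1, since fewer genes were tested. They were 50 and 4 without vehicle libraries 33, 34 and 35, 34 and 5 without 33 to 36, and 60 to 93 lower and 6 to 17 higher on leaving out each library in turn.

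Genes without overlap numbered 13 lower and 2 higher without 33 to 36, 1 higher without 33, 34 and 35, and 7 to 12 lower and 0 to 1 higher leaving out 1 library. Leaving out libraries cannot lower these counts, so they say nothing about stability. Macrophage genes lower numbered 15 without 33, 34 and 35, 9 without 33 to 36 and 18 to 25 leaving out 1; Kupffer cell genes 2 without 33 to 36 and 5 leaving out any 1; immunoglobulin genes 3, 1 and 3 to 7; interferon genes 2 without 33 to 36 and 4 leaving out any 1. Mesothelial genes higher numbered 4 with either smaller pseudocount, 0 with library weights, 0 without 33, 34 and 35, 0 without 33 to 36 and 0 to 4 leaving out 1. The P against T count was 3 without 33, 34 and 35 and 4 to 7 leaving out 1.

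Without 33, 34 and 35 the sign turned in 19 of the 242 genes, none of which had passed. Of the genes described here, those that turned without 33, 34 and 35 and without 33 to 36 were Gpnmb 0.020 and 0.0072, Ighg1 0.095 and 0.025, S100a9 0.25 and 0.24, Saa3 0.20 and 0.032, Orm2 1.09 and 1.05, Cdkn1a 0.46 and 0.50, Asns 0.26 and 0.15, Tmc5 0.016 and 0.016, with Ngp 0.0041 in the former and Ccl6 0.0061 in the latter. Orm2 was 0.00055 with library weights and Cdkn1a had a mean rank difference of 0.5. The cause was not tested. No paired analysis was possible because the groups share no library numbers.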
